A study of Homo sapiens with 4 samples.

Results

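The genes described here are 10 mediators, feedback inhibitors and ID genes of TGF-beta and BMP signalling, chosen by name and looked up in the symbol column of the count tables. They are ID1, ID2, ID3, SMAD3, SMAD6, SMAD7, SKIL, PMEPA1, TGFB1 and TGFBR2, and all 10 were found among 52402 different symbols. RNA-seq read counts came from 4 libraries, whose labels name the human ovarian cancer lines SKOV3 and OVCAR3. The groups were SKOV3 KO, SKOV3 mock, OVCAR3 KO and OVCAR3 mock, with 1 library each. KO cells carried a CRISPR-Cas9 knockout of the envelope gene of HERV-K119, an endogenous retrovirus. Mock cells were the controls, and KO and mock cells alike received hygromycin at 100 μg/mL for 2 days, about 18 h after transfection. Whether a knockout culture was 1 clone or a pool of cells is not given in the sources used here. Each line's knockout was set against its own mock to ask how the RNA of these genes differs.

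TGF-beta and BMP ligands bind pairs of type I and type II receptors, which phosphorylate receptor-regulated SMAD proteins. These join SMAD4, enter the nucleus and switch genes on or off, and among the genes they switch on are inhibitors of the pathway itself. SMAD3 carries TGF-beta and activin signals, SMAD6 and SMAD7 are inhibitory SMADs, and the ID genes are among the best known direct targets of BMP signalling. In epithelial cancers TGF-beta is known for arresting growth early and for driving a mesenchymal programme later.

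Total counts lay between 15145483 and 22057693. Levels are given as CPM, the usual scaling of counts to the library total, adjusted by TMM factors (edgeR's trimmed mean of M values). A ratio is the log2 of KO over mock with a prior count of 2 added, and brackets hold the exact 95% interval of the ratio of the counts, which covers counting error only. A gene counted as higher or lower by size where the log2 ratio reached 1 in either direction and the level reached 1 CPM in at least 1 of the 2 libraries. With 1 library a group, differences within a line were not checked by replicates, and in bulk RNA fewer cells of a type and less RNA per cell cannot be told apart. All 5 epithelial markers looked up (EPCAM, KRT8, KRT18, KRT19 and CDH1) were above 1 CPM in every library. The lines are named as labels, because CDKN2A, known to be deleted in SKOV3, had 91.2 CPM in SKOV3 KO and 90.6 CPM in SKOV3 mock. Other ovarian and line markers were looked up as well, and WT1 had a count of 0 in every library. In SKOV3 mock and OVCAR3 mock, PAX8 had 4.74 and 8.83 CPM, MUC16 0.0443 and 2.74, and ERBB2 58.5 and 73.3. In the same libraries CCNE1 had 19.4 and 25.3 CPM, and VIM 1.95 and 1.10. Line identity was not tested. The OVCAR3 KO library stood apart from the rest, with 21.9% of its counts from mitochondrially encoded rows, against 5.93% in OVCAR3 mock. The summed level of the 5 epithelial markers was 1966 CPM in OVCAR3 KO and 7303 CPM in OVCAR3 mock, and 5031 CPM in SKOV3 KO and 5404 CPM in SKOV3 mock. By the size rule 4 of the 5 were lower in OVCAR3 KO and 0 differed in SKOV3. Over all genes measured, 15.4% were lower and 22.5% higher in OVCAR3 KO, and 0.739% were lower and 0.799% higher in SKOV3 KO. Of 8 fibroblast markers, only COL1A1 reached 1 CPM in any library, and COL3A1 and LUM had a count of 0 in all 4. COL1A1 had 18.8 CPM in SKOV3 KO, 17.4 in SKOV3 mock, 35.0 in OVCAR3 KO and 19.8 in OVCAR3 mock. Among 4 leukocyte markers only CD68 reached 1 CPM, with 34.6, 35.4, 8.21 and 15.2 CPM in the same order. Among 4 endothelial markers VWF and KDR reached 1 CPM, with at most 1.10 CPM in any library. The part of these shifts in the results below was not tested.

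In the OVCAR3-labelled pair the 10 genes divided. ID2 and SMAD6 were higher in OVCAR3 KO, PMEPA1, TGFB1 and SMAD3 were lower, SMAD7 lay just short of 2-fold lower, and ID1, SKIL and TGFBR2 differed by less than 1.5-fold. In the SKOV3-labelled pair none of the 10 reached 2-fold in either direction. SMAD7, PMEPA1 and SMAD6 came nearest, all 3 higher in SKOV3 KO. ID3 had no counts and gives no level.

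Printed here are the 250 bases before the annotated start of the 2 genes that were higher by size in OVCAR3 KO and of the 2 that were lowest, from RefSeq on build GRCh38.p14, 5′ to 3′ on the strand of the gene. They lie at chr15:66701986-66702235 on the plus strand for SMAD6, chr2:8681806-8682055 on the plus strand for ID2, chr20:57711473-57711722 on the minus strand for PMEPA1 and chr19:41353923-41354172 on the minus strand for TGFB1. Capitals mark matches to 3 motifs known to bind SMAD proteins, searched on both strands. These were the palindrome GTCTAGAC, the box CAGAC and the GC-rich motif GGCGCC, and the palindrome holds neither CAGAC nor its other strand, GTCTG.
SMAD6: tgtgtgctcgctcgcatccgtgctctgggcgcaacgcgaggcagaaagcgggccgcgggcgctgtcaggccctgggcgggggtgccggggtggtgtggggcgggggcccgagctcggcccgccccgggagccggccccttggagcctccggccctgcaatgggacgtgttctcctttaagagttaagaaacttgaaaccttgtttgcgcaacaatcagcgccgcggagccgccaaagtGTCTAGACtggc
ID2: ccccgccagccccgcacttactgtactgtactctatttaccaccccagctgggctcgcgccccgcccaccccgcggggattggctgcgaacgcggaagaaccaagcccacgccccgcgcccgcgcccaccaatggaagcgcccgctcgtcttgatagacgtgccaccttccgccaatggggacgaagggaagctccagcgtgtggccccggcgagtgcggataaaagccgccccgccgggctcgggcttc
PMEPA1: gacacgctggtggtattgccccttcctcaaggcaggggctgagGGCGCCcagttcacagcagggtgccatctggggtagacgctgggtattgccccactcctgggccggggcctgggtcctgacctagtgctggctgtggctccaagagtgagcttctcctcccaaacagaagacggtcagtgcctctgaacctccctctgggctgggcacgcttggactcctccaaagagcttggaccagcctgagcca
TGFB1: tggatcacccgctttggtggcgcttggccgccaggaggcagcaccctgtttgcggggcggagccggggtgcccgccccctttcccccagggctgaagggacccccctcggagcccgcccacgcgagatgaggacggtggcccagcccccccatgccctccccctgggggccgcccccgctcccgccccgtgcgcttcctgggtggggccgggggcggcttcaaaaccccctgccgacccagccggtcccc
The SMAD6 window held the palindrome, beginning 12 bases before the annotated start, as did 64 of 35116 windows of this length, or 0.182%. The PMEPA1 window held GGCGCC once, beginning 207 bases before the start, as did 16.4% of all windows. The box CAGAC was in 38% of all windows and in neither of the ID2 and TGFB1 windows, which held none of the 3 motifs. Among the other members the SMAD7 window held CAGAC at 2 places and the ID3 window at 1, the SMAD3 window GGCGCC at 2 places, and the SKIL window each of these motifs once. A match is a run of letters and was not tested as a binding site.

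The ID proteins have a helix-loop-helix but no DNA-binding region, and they bind E proteins and keep them off DNA. ID1 (chromosome 20, 31605289 to 31606510) had 93.2 CPM in SKOV3 KO, 98.1 in SKOV3 mock, 381 in OVCAR3 KO and 462 in OVCAR3 mock. Both OVCAR3-labelled libraries thus lay above both SKOV3-labelled ones. The ratio was -0.08 (-0.17 to 0.02) in SKOV3 and -0.28 (-0.33 to -0.23) in OVCAR3, and only the second interval left out 0. Per kilobase of the longest GENCODE 29 transcript, ID1 had the highest level of the 9 genes with counts in each library, from 75.6 CPM per kb in SKOV3 KO to 374 CPM per kb in OVCAR3 mock.

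ID2 (chromosome 2, 8682056 to 8684461) differed between the lines and in direction. Its level was 14.9 CPM in SKOV3 KO and 17.8 in SKOV3 mock, and 143 CPM in OVCAR3 KO and 56.2 in OVCAR3 mock. The highest library was OVCAR3 KO and the lowest SKOV3 KO, and each step in the order of the 4 levels was beyond counting error. The ratio was 1.34 (1.23 to 1.45) in OVCAR3, a 2.53-fold higher level in the knockout library, and -0.25 (-0.49 to -0.02) in SKOV3.

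ID3, the third of these BMP targets (chromosome 1, 23557926 to 23559501), stood in 2 rows, and both had a count of 0 in all 4 libraries. At these depths a row at 0 could still hide 3 counts, or 0.136 to 0.198 CPM before scaling. Among protein-coding symbols with 2 rows, 42.9% had a count of 0 in every library, against 13.2% of those with 1 row. The 0 of ID3 is therefore not read as a level.

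SMAD3 passes on the signal of TGF-beta receptors. SMAD3 (chromosome 15, 67065602 to 67195169) had 102 CPM in SKOV3 KO, 117 in SKOV3 mock, 76.0 in OVCAR3 KO and 154 in OVCAR3 mock. OVCAR3 KO was the lowest library and OVCAR3 mock the highest, with every step beyond counting error. The ratio was -1.02 (-1.12 to -0.91) in OVCAR3, just past 2-fold lower, and -0.19 (-0.28 to -0.10) in SKOV3. After a trend on GC content and transcript length was removed, the OVCAR3 ratio of SMAD3 was -0.74 and no longer past the size rule. SMAD3-AS1, a non-coding RNA gene inside SMAD3, was not analysed here, and since the strand setting of the counting is not given, reads from either strand cannot be told apart.

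The inhibitory SMADs went apart in OVCAR3. SMAD6, which mainly restrains BMP receptors (chromosome 15, 66702236 to 66782849), had 3.74 CPM in SKOV3 KO and 2.39 in SKOV3 mock, and 15.3 CPM in OVCAR3 KO and 6.27 in OVCAR3 mock. It was higher in the knockout library of both pairs, by 0.62 (0.09 to 1.21) in SKOV3 on 59 against 54 counts and by 1.28 (0.95 to 1.64) in OVCAR3. With TMM factors taken over all rows the OVCAR3 ratio of SMAD6 was 0.99, just short of 2-fold. SMAD7, which restrains TGF-beta and BMP receptors alike (chromosome 18, 48919853 to 48950965), had 4.25 CPM in SKOV3 KO and 2.13 in SKOV3 mock, and 2.24 CPM in OVCAR3 KO and 4.57 in OVCAR3 mock. The levels of SKOV3 KO and OVCAR3 mock were within counting error of each other, as were those of SKOV3 mock and OVCAR3 KO. Its ratio was 0.96 (0.44 to 1.57) in SKOV3 and -0.99 (-1.66 to -0.42) in OVCAR3, close to 2-fold in opposite directions, on counts between 33 and 75 a library. The OVCAR3 ratio of SMAD7 ran from -1.27 with TMM over all rows to -0.41 with the GC and length trend removed.

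**Figure D1:**
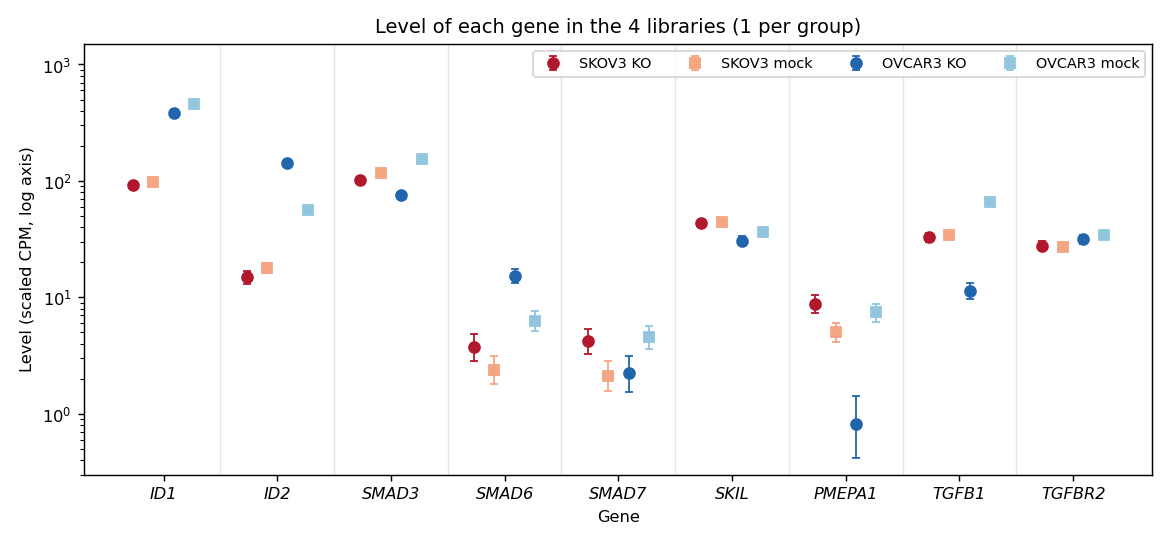
Level of the 9 genes with counts in the 4 libraries, as scaled CPM on a log axis, with circles for KO, squares for mock and bars for exact 95% Poisson intervals of the counts. ID1 and ID2 were higher in both OVCAR3-labelled libraries than in both SKOV3-labelled ones, and PMEPA1 at 0.815 CPM and TGFB1 at 11.4 CPM were lowest in OVCAR3 KO.

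The nuclear corepressor and the membrane inhibitor of the pathway differed in size of ratio. SKIL encodes SnoN, which binds SMAD proteins and holds their target genes silent (chromosome 3, 170357715 to 170396849). It had 43.3 CPM in SKOV3 KO and 44.0 in SKOV3 mock, and 30.7 CPM in OVCAR3 KO and 36.3 in OVCAR3 mock. The 2 SKOV3-labelled libraries were within counting error of each other, and the ratio in OVCAR3 was -0.24 (-0.42 to -0.06). The longest SKIL transcript has 33.4% GC, the lowest of the 10 genes, and its OVCAR3 ratio was -0.93 with the GC and length trend removed.

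PMEPA1 encodes a membrane protein that is induced by TGF-beta and sequesters receptor-regulated SMADs (chromosome 20, 57648396 to 57711472). Its counts were 139 in SKOV3 KO, 114 in SKOV3 mock, 12 in OVCAR3 KO and 122 in OVCAR3 mock. That is 8.82 CPM in SKOV3 KO, 5.05 in SKOV3 mock, 0.815 in OVCAR3 KO and 7.43 in OVCAR3 mock. OVCAR3 KO stood alone below the other 3 libraries, and the gene passed the filter of 1 CPM there through the mock library. The ratio was -3.02 (-4.18 to -2.33) in OVCAR3, an 8.11-fold lower level, and 0.79 (0.44 to 1.17) in SKOV3, a 1.73-fold higher one. With the GC and length trend removed it was -2.62 in OVCAR3 and 0.77 in SKOV3. NKILA, a non-coding RNA gene that overlaps the PMEPA1 start, had at most 2 counts in any library.

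TGFB1 encodes the ligand TGF-beta 1 (chromosome 19, 41330323 to 41353922). Its level was 32.7 CPM in SKOV3 KO and 34.4 in SKOV3 mock, and 11.4 CPM in OVCAR3 KO and 66.0 in OVCAR3 mock. The OVCAR3-labelled pair thus held both the lowest and the highest level, and the SKOV3-labelled pair was within counting error. The ratio was -2.52 (-2.78 to -2.30) in OVCAR3, a 5.74-fold lower level, and -0.07 (-0.23 to 0.09) in SKOV3. TGFBR2, the type II receptor of this ligand (chromosome 3, 30606356 to 30694142), had 27.9 CPM in SKOV3 KO, 27.0 in SKOV3 mock, 31.6 in OVCAR3 KO and 34.4 in OVCAR3 mock. Neighbouring levels of TGFBR2 were within counting error throughout, with a ratio of 0.05 (-0.13 to 0.23) in SKOV3 and -0.12 (-0.30 to 0.06) in OVCAR3. Between the mock libraries, OVCAR3 exceeded SKOV3 by a log2 ratio of 0.35 (0.18 to 0.52), beyond counting error. Between the KO libraries it was 0.18 (-0.01 to 0.37).

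**Figure D2:**
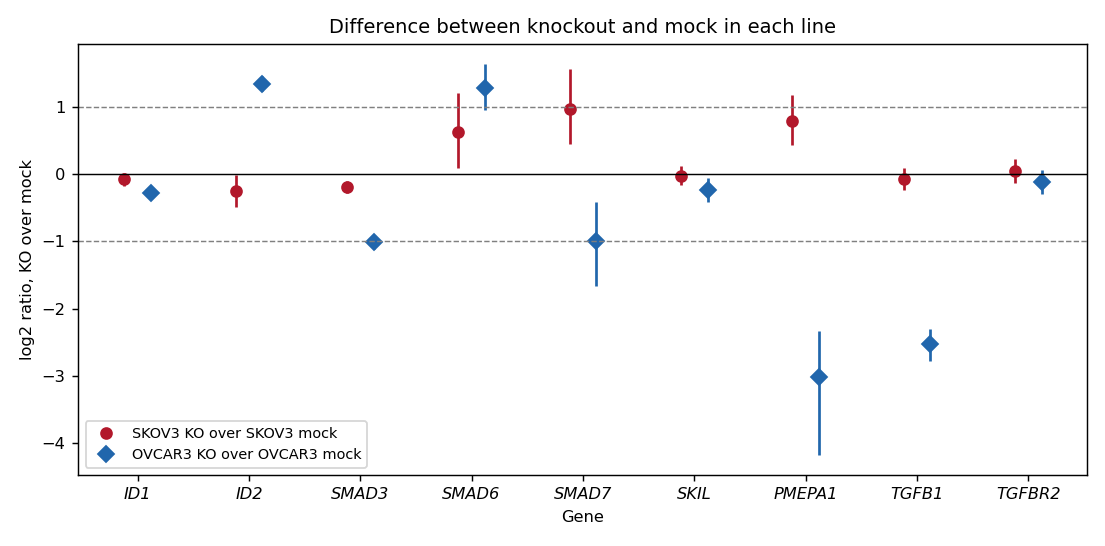
Log2 ratio of KO over mock in the SKOV3-labelled pair (circles) and the OVCAR3-labelled pair (diamonds), with bars for exact 95% counting intervals and dashed lines at 2-fold. ID2, SMAD7 and PMEPA1 lie on opposite sides of 0 in the 2 pairs, and the ratio of PMEPA1 in OVCAR3 is -3.02.

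Read against all genes, the counts of called members were as follows. In SKOV3, 0 of the 10 genes were higher by size and 0 lower, against 0.799% and 0.739% of the 13524 genes measured there. In OVCAR3, 2 were higher and 3 lower, against 22.5% and 15.4% of 15560 genes, so that differences of this size were common in that pair. Among 12166 protein-coding genes the balance was the other way, with 1587 higher and 2222 lower. With TMM over all rows 1 member was higher and 4 lower, and over all genes 2594 were higher and 3417 lower, against 3504 higher and 2390 lower with the factors used here. That scaling moved the median log2 ratio of all genes measured in OVCAR3 to -0.13, against 0.16 with the factors used here. The median over the 9 members with counts was -0.28 in OVCAR3 and -0.03 in SKOV3, against medians of -0.02 and 0.01 over protein-coding genes.

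GC content went with the ratios in OVCAR3. Over 5 equal groups of protein-coding genes by rising GC content, the median ratio ran from 0.47 to -0.70 in OVCAR3 and from -0.01 to 0.06 in SKOV3. The members' transcripts had between 33.4% and 63.5% GC, with TGFB1 the highest. ID1, ID2, SMAD6 and TGFBR2 lay above the median of their GC group, and PMEPA1, TGFB1, SMAD3, SMAD7 and SKIL below it. With the trend removed, 2 members were still higher by size (ID2 at 1.52 and SMAD6 at 1.88) and 2 lower (PMEPA1 at -2.62 and TGFB1 at -1.99), against 1413 higher and 1561 lower of 12125 protein-coding genes.

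**Figure D3:**
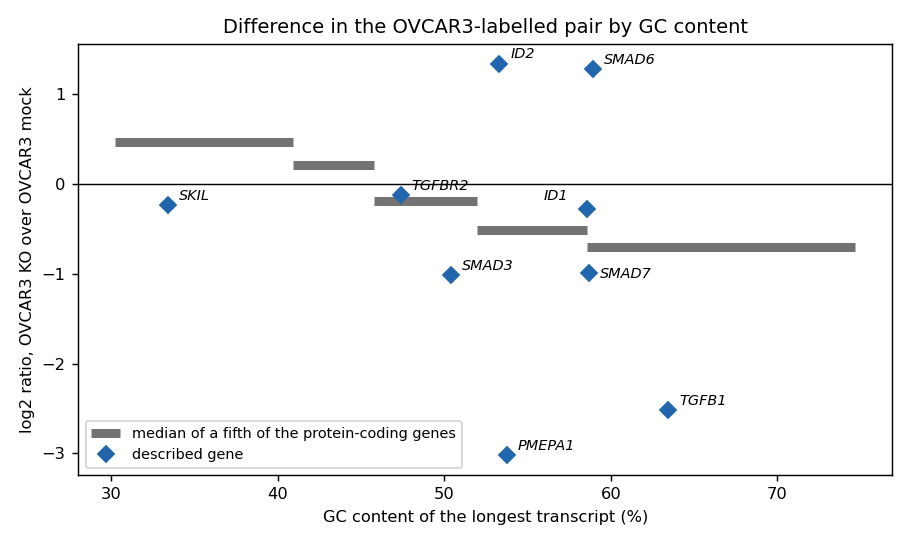
Log2 ratio of OVCAR3 KO over OVCAR3 mock against the GC content of the longest transcript (%), with diamonds for the 9 genes with counts and grey bars for the median of each of 5 equal groups of protein-coding genes. The grey bars run from 0.47 at low GC to -0.70 at high GC, and PMEPA1 and TGFB1 lie over 1 unit below the bar at their GC content.

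With the line as a block, edgeR's quasi-likelihood test compared the 2 KO libraries with the 2 mock libraries, and the lines were the only replicates. None of the 9 members with counts was called, against 0% of 13670 genes at a Benjamini-Hochberg adjusted p of 0.05. At an unadjusted p under 0.05 there were 140 genes, or 1.02%, and no member. DESeq2 and limma-voom called 0 genes as well. TGFB1 had the smallest unadjusted p among the members, 0.0596 (log2 change -1.29, adjusted p = 0.956), and was lower in KO beyond counting error in 1 of 2 lines, OVCAR3. Without the SKOV3 KO library and the line term, which sets OVCAR3 KO against both mocks, edgeR called 620 genes and TGFB1 among them (adjusted p = 0.0445). Over all alternatives edgeR, DESeq2 and limma-voom gave TGFB1 an adjusted p between 0.0445 and 1.00. Whether the knockout difference itself differs between the lines could not be tested, since a term for it leaves no residual degree of freedom.

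Between the line labels, ID1 and ID2 had the largest ratios of the members in the mock libraries. In the mock libraries, OVCAR3 exceeded SKOV3 by a log2 ratio of 2.23 (2.17 to 2.30) for ID1, 1.66 (1.49 to 1.84) for ID2 and 1.35 (0.90 to 1.89) for SMAD6. TGFB1 and SMAD7 were higher in OVCAR3 mock as well, by 0.94 (0.81 to 1.08) and 1.06 (0.56 to 1.66), but in the knockout libraries OVCAR3 was lower than SKOV3 for both, at -1.51 (-1.78 to -1.27) and -0.89 (-1.57 to -0.30). In the edgeR fit over all 4 libraries the log2 change of OVCAR3 over SKOV3 was 2.13 for ID1 (adjusted p = 0.220), 2.46 for ID2 (adjusted p = 0.213) and 1.71 for SMAD6 (adjusted p = 0.294). No member was called, against 0.0366% of genes, while 12.1% of genes had an unadjusted p under 0.05. DESeq2 called ID1 and ID2 among 186 genes, with adjusted p of 0.000508 and 0.00134. In fits of 3 libraries without the genotype term, the log2 change of ID1 was 2.27 without OVCAR3 KO and 1.99 without OVCAR3 mock. For ID2 it was 1.78 and 3.12, and for SMAD6 1.06 and 2.35. Each of these fits leaves 1 OVCAR3-labelled library.

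The wider pathway was followed in 74 further genes, listed by role. In SKOV3, 0 of 60 measured genes passed the size rule, with a median ratio of -0.01. In OVCAR3, 5 of 63 were higher and 23 lower, against 22.5% and 15.4% of all genes measured, and 1587 higher and 2222 lower of 12166 protein-coding genes. The median was -0.64, against 0.16 over all genes measured and -0.02 over protein-coding genes. With the GC and length trend removed, 5 were higher and 17 lower, against 1413 and 1561 of 12125 protein-coding genes. CTGF, lower by size before this step (-1.47), had no ratio with the trend removed and was not counted among the 17. The lists, like the members, were drawn up with earlier results of these data known.

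Of the downstream target genes, the longest list, 12 of 18 measured were lower in OVCAR3 and 1 higher, against 15.4% lower and 22.5% higher over all genes. Of 12166 protein-coding genes, 2222 were lower and 1587 higher. SNAI2, a repressor of epithelial genes, had 1 count in OVCAR3 KO and 40 in OVCAR3 mock, a ratio of -3.80 (-10.5 to -2.60). It passed the filter of 1 CPM through the mock library, and it was on the other side of 0 in SKOV3, at 0.62 (0.32 to 0.94). SNAI1, of the same family, had a ratio of -2.07 (-2.48 to -1.73) in OVCAR3 and -0.40 (-0.67 to -0.14) in SKOV3. The transcriptional repressor gene BHLHE40 had 23.0 CPM in OVCAR3 KO and 162 in OVCAR3 mock, a ratio of -2.81 (-2.99 to -2.66). CDKN1A, which encodes the cell-cycle inhibitor p21, had 110 CPM in OVCAR3 KO and 938 in OVCAR3 mock. MSX2, a homeobox gene and BMP target, had a ratio of -1.74 (-2.09 to -1.45) in OVCAR3. The target that was higher was TAGLN, which encodes an actin-binding protein of smooth muscle, at 1.12 (0.58 to 1.75), and it is named after its value was seen.

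Genes of ligand storage and release had the next lowest median. Of 8 measured, 5 were lower in OVCAR3 and 1 higher, with a median of -1.32. Among 12166 protein-coding genes measured there, 2222 were lower and 1587 higher. THBS1, encoding thrombospondin 1, which can activate latent TGF-beta, had 3.33 CPM in OVCAR3 KO and 16.6 in OVCAR3 mock (-2.28, -2.79 to -1.88). FURIN, the protease that cleaves TGF-beta precursors, had 14.9 CPM in OVCAR3 KO and 63.1 in OVCAR3 mock (-2.07, -2.29 to -1.87). The latent TGF-beta binding protein genes LTBP1, LTBP3 and LTBP2 had ratios of -1.48, -1.36 and -1.27. With the GC and length trend removed, LTBP1 was still past the size rule (-1.15), and LTBP3 (-0.76) and LTBP2 (-0.72) were not. ITGB8, a subunit of an integrin that releases TGF-beta, was higher at 9.43 CPM in OVCAR3 KO and 2.98 in OVCAR3 mock (1.62, 1.18 to 2.16).

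None of the 5 other SMAD genes passed the size rule in either line, and their median was 0.01 in OVCAR3. For this list and those of receptors and ligands, the shares over all genes in OVCAR3 were 22.5% higher and 15.4% lower. Of 12166 protein-coding genes there, 1587 were higher and 2222 lower. The shares over all genes in SKOV3 were 0.799% higher and 0.739% lower. Of 10 other receptor genes measured in OVCAR3, the BMP type I receptor gene ACVR1 was lower (-1.10, -1.40 to -0.82). The co-receptor gene ENG was higher (1.94, 0.86 to 4.05) on 22 counts in OVCAR3 KO and 5 in OVCAR3 mock, and passed the filter of 1 CPM only through the KO library. Among 8 measured ligands BMP7 was lower at 7.67 CPM in OVCAR3 KO and 20.4 in OVCAR3 mock (-1.40, -1.73 to -1.10) and BMP6 was lower on 24 and 61 counts (-1.13, -1.93 to -0.49). NODAL was higher on 43 counts in OVCAR3 KO and 13 in OVCAR3 mock (1.74, 0.96 to 2.90), and it too passed that filter only through the KO library. BMP7 (-0.92) and BMP6 (-0.81) were no longer past the size rule with the GC and length trend removed.

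Inhibitors outside the 10 genes held 2 lower and 1 higher among 12 measured in OVCAR3, against 2222 lower and 1587 higher of 12166 protein-coding genes. NEDD4L, a ubiquitin ligase that acts on SMAD proteins, had 31.8 CPM in OVCAR3 KO and 103 in OVCAR3 mock (-1.69, -1.85 to -1.55), and FSTL3, a secreted binder of activins, had a ratio of -1.59 (-1.78 to -1.40). LDLRAD4, which encodes a relative of the PMEPA1 protein, was higher on 71 counts in OVCAR3 KO and 19 in OVCAR3 mock (1.96, 1.31 to 2.87), where PMEPA1 was lower. Of the E proteins that ID proteins bind, TCF3 was lower (-1.41, -1.52 to -1.31) and TCF12 had a ratio of -0.06, while TCF4 had 3 counts in SKOV3 mock and 0 in the other libraries. The OVCAR3 ratio of TCF3 was -0.79 with the GC and length trend removed, short of the size rule.

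**Figure D4:**
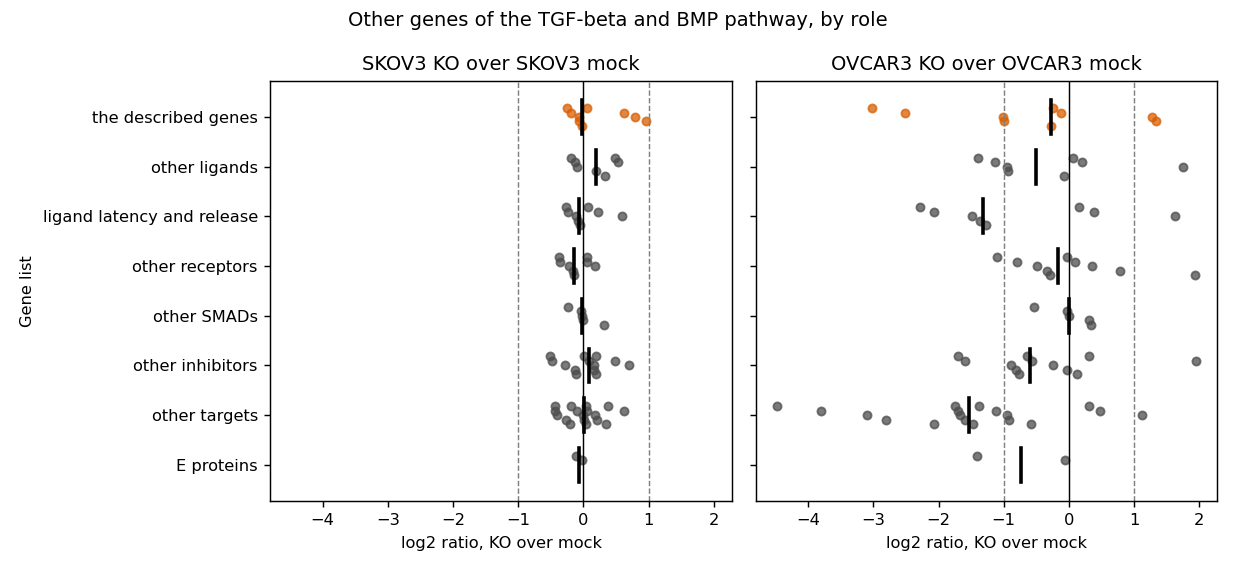
Log2 ratio of KO over mock in each line for the measured genes of 7 pathway lists and the 9 described genes with counts (orange), with black bars for list medians and dashed lines at 2-fold. In SKOV3 all points lie inside the dashed lines, and in OVCAR3 the median of the other targets is -1.53.

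The genes whose centred log2 levels over the 4 libraries lay nearest to a member's were looked up among 11847 genes. PMEPA1 had the sparsest neighbourhood, with 4 genes within a distance of 0.5 on the log2 scale, and its nearest was the readthrough locus TVP23C-CDRT4 at 0.27. ID2 had 19 such genes, with the pseudogene RPL32P29 nearest at 0.15. ID1 had 30, with APOBEC3C nearest at 0.22, and SMAD6 had 37, with NFATC4 nearest at 0.14. TGFB1 had 165, with MAGED1 nearest at 0.07. SMAD3 (ACADS nearest), TGFBR2 (ZNF28 nearest) and SKIL each had between 1542 and 2618 such genes, so that with 4 libraries their patterns single out no gene. Among the members themselves, SKIL and TGFBR2 were nearest to each other, at 0.65, and ID2 and SMAD6 at 0.99.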

How the data were processed

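The authors deposited raw counts of reads per gene symbol, not normalised, for each library. Per the labels' protocols, Trizol was used to extract total RNA and a directional NEBNext kit to build libraries, and per the submitters' processing notes TopHat and build GRCh38 were used. How reads were counted, with which annotation and strand setting, is not given in the sources used here. All 58173 rows were summed per symbol. TMM factors of edgeR 4.0.16 (R 4.3.3), from 0.931 to 1.04, were computed over 13670 genes with at least 1 CPM in 2 libraries, and the quasi-likelihood test, fitted on them, has 1 residual degree of freedom. Nothing says how cultures were kept apart, so p-values reflect only how far these libraries differ. Alternatives were DESeq2 1.42.0, limma-voom (limma 3.58.1), other scalings, prior counts, folds and filters, and ratios with a spline (5 degrees of freedom) against GC content and length of the longest GENCODE 29 transcript subtracted. The edgeR fit of KO against mock was tested on simulated data, with no difference between the lines and the same changes in both. The other fits were not simulated. Coordinates and promoters are RefSeq's, GRCh38.p14. Pathway genes past the size rule were named, at most 6 a list, largest ratio first, and for each member above 5 CPM the nearest gene by Euclidean distance. Some genes this rule takes are not reported here. The members and lists were chosen with earlier results of these data known.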

Additional observations from a re-analysis of the deposited data

Results flagged for a closer look

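For 3 of the genes KO and mock differed in opposite directions in the 2 lines, each beyond counting error, and the difference between the lines was not tested. For PMEPA1 the log2 ratio of KO over mock was -3.02 in OVCAR3 and 0.79 in SKOV3, a difference of -3.81. For SMAD7 it was -0.99 in OVCAR3 and 0.96 in SKOV3, a difference of -1.95. For ID2 it was 1.34 in OVCAR3 and -0.25 in SKOV3, a difference of 1.59.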

How the results depend on the processing

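Of 126 recomputed ratios of members over the 7 alternatives that alter a ratio, 105 stayed within the counting interval of the value reported, 21 moved outside it and 0 turned from a called direction to the opposite one. All 21 that moved were in OVCAR3. The members higher by size in OVCAR3 numbered 1 with TMM over all rows (chosen after seeing the data) and 0 at 3-fold, and in SKOV3 3 at 1.5-fold. Over all genes these settings gave 2594 higher of 15177 and 2360 of 15560 in OVCAR3, and 505 of 13524 in SKOV3. The number lower in OVCAR3 ran from 2 (3-fold, or the GC and length trend removed) to 4. At 3-fold 939 of 15560 genes were lower, and with the trend removed 1561 of 12125 protein-coding genes. Of the other pathway genes in OVCAR3, 13 were lower at 3-fold, 9 were higher with no filter and 2 were higher at 5 CPM. Over all genes these numbers were 939 of 15560, 8078 of 26950 and 1412 of 11717. In SKOV3, 2 of the other pathway genes were higher at 1.5-fold, and 1 was higher and 2 lower with no filter. Over all genes in SKOV3, 505 of 13524 were higher at 1.5-fold, and with no filter 1097 were higher and 1173 lower of 24620. For KO against mock, edgeR called 1 gene with no filter (P2RY11), and between 0 and 620 genes and 0 and 1 members with 1 library left out. For OVCAR3 against SKOV3, the 5 genes called (APOBEC3G, CLSTN2, LOC283352, PRF1 and TNFRSF6B, named after their values were seen) became 226 with no filter (2 members), 58 at 5 CPM (1 member, ID2), 186 with DESeq2 (2 members) and 2 with limma-voom. They became 0 with DESeq2 size factors, with TMM over all rows and without the genotype term (also chosen after seeing the data), and between 0 and 8742 genes and 0 and 7 members with 1 library left out. The cause was not tested. In these fits of 3 libraries the lone library is assumed to vary like the others. Replicate numbers pair nothing, because each group held 1 library. The edgeR fit of KO against mock has the line as its block, which pairs each knockout with the mock of its own line. Without that block the fit called 0 genes as well. PMEPA1 in OVCAR3 KO rests on 12 counts, and SMAD6 and SMAD7 on 33 to 226, which limits their precision.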

Other observations

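Several symbols stood in more than 1 row of the count tables, and some of these are genes of interest in this setting. Of 623 protein-coding symbols with 2 rows, 267 had a count of 0 in all 4 libraries, against 2306 of 17426 with 1 row. ID3 and the leukocyte gene PTPRC were at 0 in 2 rows each, and the BMP antagonist gene GREM1 was at 0 in 4 rows. SMURF1, a ubiquitin ligase of the pathway, also stood in 2 rows, of which 1 held every count (732 in SKOV3 KO, 937 in SKOV3 mock, 416 in OVCAR3 KO and 857 in OVCAR3 mock).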
